A study of Homo sapiens with 15 samples.

Results

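The epithelial antimicrobial peptides and alarmins comprised 10 genes, S100A7, S100A8, S100A9, S100A12, DEFB4A, DEFB1, LCN2, PI3, SLPI and RNASE7, out of 19483 genes that could be named on the arrays. Members were found as the non-control probes named by a RefSeq accession of one of these genes, which gave 11 probes. S100A12 had 2 probes and every other member had 1. The members were chosen by name, and the list was selected on log2 green-channel signals of NCE and CYGB+ with the difference between the groups already known. The members' differences are therefore given as a description, without a p-value for any single member. Which members passed a threshold, and how many, is given beside the share of all probes that did, where that share was taken. These calls use the contrast on which the list was selected, and nothing is read from them.

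PE/CA-PJ41 is a human oral squamous carcinoma cell line that the study chose as lacking cytoglobin, a haem protein of the globin family. Cells transfected with an empty vector (NCE, non-cytoglobin expressing) were compared with cells stably transfected with a human cytoglobin cDNA (CYGB+). Neither group received a drug. The plasmid places the cDNA behind a cytomegalovirus promoter and carries neomycin resistance, and the CYGB+ cells came from 1 clone, so the transgene and the clone cannot be told apart. The study text also describes its control as un-transfected parent cells, whereas the labels give an empty vector. Each group had 3 biological replicates, read on 3 array repeats each for NCE and 2 each for CYGB+, which gave 15 arrays. Levels are log2 green-channel signals after background correction and quantile normalisation, and array repeats were averaged before comparison (n = 3 per group). The exceptions are the fit with slide as a block and a fit of all 15 arrays. Both used single arrays, with the biological replicate as a random block.

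These proteins form the secreted chemical barrier of squamous epithelium. S100A8 and S100A9 pair to form calprotectin, which withholds zinc and manganese from microbes and acts as an alarmin, a signal of tissue damage, and S100A12 and S100A7 (psoriasin) are related zinc-binding proteins. The beta-defensins DEFB4A (human beta-defensin 2, inducible) and DEFB1 (human beta-defensin 1, largely constitutive) disrupt microbial membranes, lipocalin 2 (LCN2) captures bacterial siderophores, PI3 (elafin) and SLPI inhibit neutrophil elastase, and RNASE7 is an antimicrobial ribonuclease of skin. Inducible members are known to respond to interleukin-1, interleukin-17 and interleukin-22 through NF-kB, C/EBP and AP-1 transcription factors.

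The DNA just upstream of 5 members is shown because these members differed in direction and size. Some of the regulators described further on are also transcription factors, which bind such regions. The windows are the 250 bases before the start of the RefSeq gene model (GRCh38.p14), on the strand of the gene, 5′ to 3′. They lie at chr1:153460652-153460901 (minus strand), chr1:153357604-153357853 (plus strand), chr1:153375622-153375871 (minus strand), chr9:128149203-128149452 (plus strand) and chr14:21042112-21042361 (plus strand). Capitals mark letters matching TATAAA, the AP-1-type core TGANTCA (N is any base), the C/EBP-type core TTGCNNAA or the NF-kB consensus, searched on both strands.
S100A7: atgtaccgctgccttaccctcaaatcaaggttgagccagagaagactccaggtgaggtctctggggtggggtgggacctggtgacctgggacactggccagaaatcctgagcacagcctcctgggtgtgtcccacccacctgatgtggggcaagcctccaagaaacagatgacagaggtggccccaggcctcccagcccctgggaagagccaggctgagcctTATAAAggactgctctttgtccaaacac
S100A9: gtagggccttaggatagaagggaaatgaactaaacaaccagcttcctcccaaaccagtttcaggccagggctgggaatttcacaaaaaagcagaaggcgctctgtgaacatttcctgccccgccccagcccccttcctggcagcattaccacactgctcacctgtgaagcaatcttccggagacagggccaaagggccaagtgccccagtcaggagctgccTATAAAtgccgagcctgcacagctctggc
S100A12: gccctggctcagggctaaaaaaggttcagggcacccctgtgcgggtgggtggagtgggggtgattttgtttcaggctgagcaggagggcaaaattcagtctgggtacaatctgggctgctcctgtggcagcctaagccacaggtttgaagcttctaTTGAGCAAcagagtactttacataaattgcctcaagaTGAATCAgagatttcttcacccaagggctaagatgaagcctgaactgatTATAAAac
LCN2: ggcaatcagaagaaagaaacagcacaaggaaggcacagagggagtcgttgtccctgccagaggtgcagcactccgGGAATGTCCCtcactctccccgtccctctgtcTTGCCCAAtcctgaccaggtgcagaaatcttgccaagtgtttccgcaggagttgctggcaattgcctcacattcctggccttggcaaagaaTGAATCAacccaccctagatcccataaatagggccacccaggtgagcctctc
RNASE7: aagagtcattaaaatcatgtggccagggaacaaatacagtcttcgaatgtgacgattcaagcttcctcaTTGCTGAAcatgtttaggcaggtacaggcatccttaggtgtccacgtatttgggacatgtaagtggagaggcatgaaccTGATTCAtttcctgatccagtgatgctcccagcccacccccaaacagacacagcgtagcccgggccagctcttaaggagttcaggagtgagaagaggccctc

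TATAAA began 28 bases before the start of S100A7, 29 bases before that of S100A9 and 8 bases before that of S100A12, and 11.1% of 27305 windows of the same length, 1 per gene, held it. TGANTCA was found in S100A12, LCN2 and RNASE7 (6.60% of all windows), and TTGCNNAA in the same 3 genes (9.13% of all windows). The middle base of each TGANTCA match was A or T, not the C or G of the usual AP-1 core. The NF-kB consensus was found in LCN2, 175 bases before the start (5.05% of all windows). No marked match overlapped another. RNASE7, which was lower in CYGB+, and S100A12 and LCN2, which were higher, thus held the same 2 short cores, and such matches describe letters and not occupied sites.

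Of 42405 non-control probes, 22328 were well above background on at least 6 of the 15 arrays and were tested with limma, and 2415 of them (10.8%) passed an adjusted p of 0.05. Those higher in CYGB+ numbered 1227 (5.50%) and those lower 1188 (5.32%). Between 48.9% and 57.3% of non-control probes were well above background on an array, and the number of arrays limits the precision. The first array repeat of CYGB+ replicate 1 stood apart: its levels correlated at 0.94 with its own second repeat and at 0.941 with the other CYGB+ replicates, whereas the second repeat correlated with those at 0.99. The second repeat of NCE replicate 3 correlated at 0.975 with its own replicate, and the other 12 arrays with theirs at 0.983 to 0.995. The arrays lay on 2 slides, slide 1 with 8 NCE arrays and slide 2 with 1 NCE array and all 6 CYGB+ arrays, so slide and group were largely confounded. The RefSeq-named CYGB probe read 11.85, 12.15 and 11.96 in NCE and 11.38, 12.44 and 11.97 in CYGB+, a difference of -0.05 ± 0.25 (SE, n = 3 per group). Where this probe lies in the transcript is not given, so it may miss the transfected cDNA and may check nothing. It was well above background on 9 of 9 NCE and 6 of 6 CYGB+ arrays, although the study chose the line as lacking cytoglobin. What the probe measures in NCE was not tested. Groups are therefore those of the labels, and each direction below is between libraries labelled CYGB+ and libraries labelled NCE. All 9 markers fixed for squamous epithelium, among them KRT5, KRT14, TP63 and CDH1, were well above background on all 15 arrays.

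Most members were higher in the libraries labelled CYGB+. In 7 of the 9 tested members, S100A7, S100A8, S100A9, S100A12, DEFB4A, LCN2 and PI3, all 3 CYGB+ replicates lay above all 3 NCE replicates, a pattern shown by 16.7% of all tested probes. In RNASE7 all 3 CYGB+ replicates lay below all 3 NCE replicates, as in 16.7% of probes. SLPI overlapped between the groups, and DEFB1 was too dim to test. Past the threshold were S100A7, S100A12, DEFB4A and PI3, 4 of 9, against 5.50% of all probes in that direction and 10.8% in either. S100A7 and S100A12 were well above background on 5 of 9 NCE arrays each. They thus met the filter of 6 arrays only through CYGB+. The median difference was 0.96 on the log2 scale over the 9 members and 0.00 over all tested probes, and since the rule used this contrast, nothing is read from the count or the median. In bulk RNA of this kind, more cells making a transcript and more transcript per cell cannot be told apart.

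**Figure D1:**
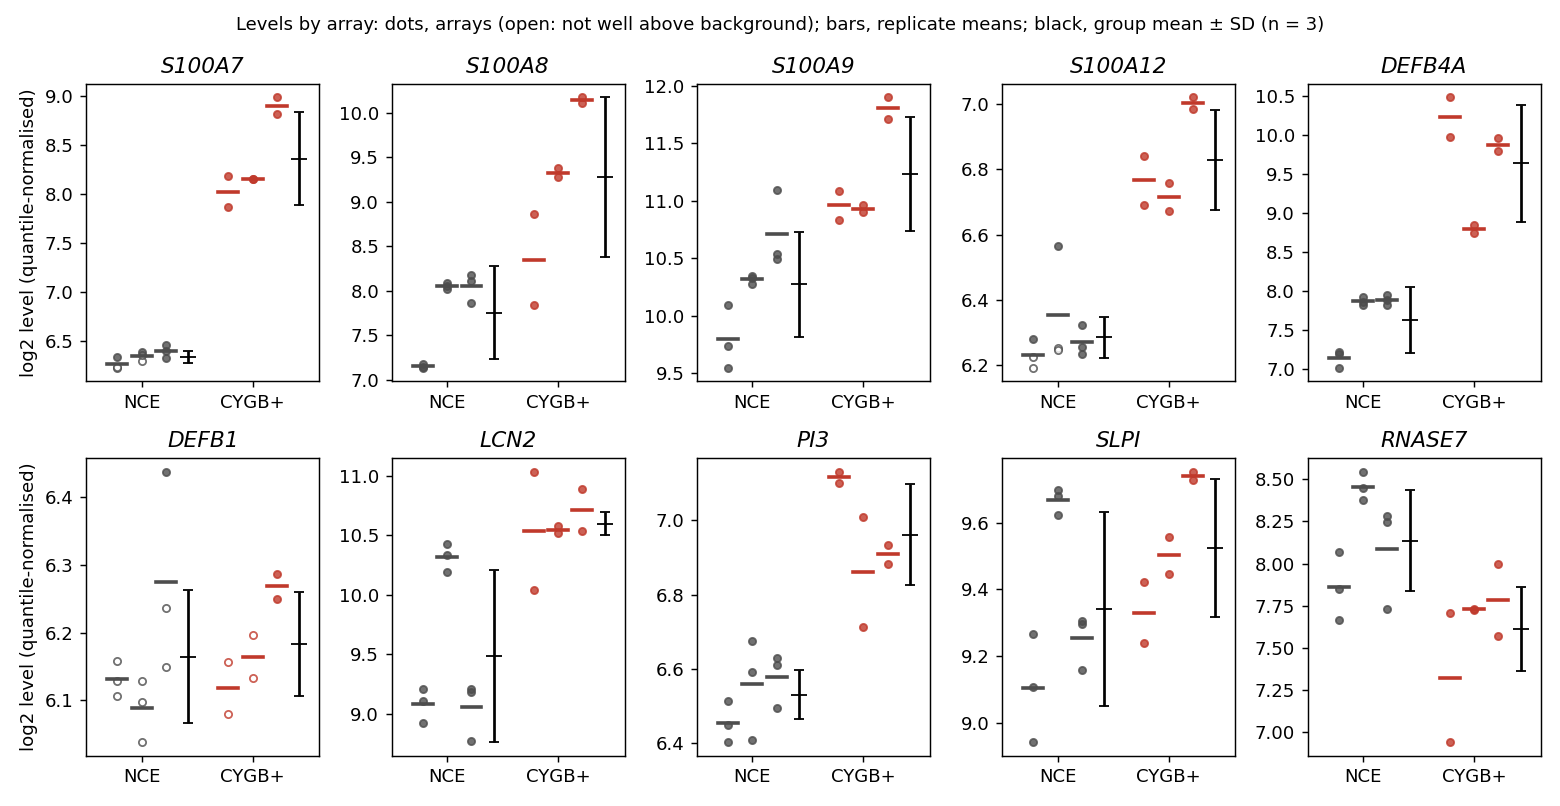
Quantile-normalised log2 levels of the 10 members (vertical axes, 1 panel per gene, each with its own range) in NCE and CYGB+ libraries. Dots are arrays, open where the probe was not well above background, coloured bars are biological replicates 1 to 3 from left to right, and black bars are the group mean ± SD (n = 3). In S100A7 and DEFB4A every CYGB+ array lies above every NCE array, whereas NCE replicate 2 reaches 10.32 in LCN2, near the CYGB+ replicates.

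The S100 genes were led by S100A7, the psoriasin gene of inflamed squamous epithelium. Its level was 6.27, 6.35 and 6.40 in NCE replicates 1 to 3 and 8.02, 8.15 and 8.90 in CYGB+ replicates 1 to 3. The groups were separated by 1.63, with CYGB+ replicate 3 highest, and the difference was 2.02 ± 0.22 (SE), or 4.05-fold. Detection is read from the same signal as the level and is not a separate difference. The probe was printed 10 times per array, and 53 of 90 NCE spots but 60 of 60 CYGB+ spots were well above background. These spots are repeats within 3 replicates per group. NCE spots lay mostly on slide 1 and CYGB+ spots all on slide 2. The uncorrected spot signal ran from 25.5 to 86.5 (median 56) in NCE and from 144 to 813 (median 215) in CYGB+, so no CYGB+ spot was as dim as the brightest NCE spot. Background correction adds an offset of 50 to every spot, which shrinks differences of dim probes, and with the scanner's processed signal the difference was 3.97.

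S100A8 and S100A9, the calprotectin subunits, were both higher and varied from replicate to replicate. S100A8 read 7.15, 8.06 and 8.05 in NCE and 8.35, 9.33 and 10.14 in CYGB+, a difference of 1.52 ± 0.45 (SE). The spread was wide in both groups, with an SD of 0.52 in NCE and 0.90 in CYGB+, and only 0.30 separated the highest NCE from the lowest CYGB+ replicate. The 2 arrays of CYGB+ replicate 1 gave 7.84 and 8.87, and the lower of them is the array that stood apart. S100A9 read 9.79, 10.32 and 10.71 in NCE and 10.96, 10.93 and 11.81 in CYGB+, a difference of 0.96 ± 0.30 (SE) with a gap of 0.22. A single NCE array reached 11.09, above 4 of the 6 CYGB+ arrays, and it is the second repeat of NCE replicate 3. Both subunits were lowest in NCE replicate 1 and highest in CYGB+ replicate 3.

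S100A12, which is known as a ligand of the receptor AGER, was dim. Its brighter probe read 6.23, 6.35 and 6.27 in NCE and 6.77, 6.72 and 7.0 in CYGB+, and the difference was 0.54 ± 0.11 (SE). It was well above background on 5 of 9 NCE and 6 of 6 CYGB+ arrays, and with the processed signal the difference was 1.65. The second S100A12 probe was well above background on none of the 9 NCE and on 4 of the 6 CYGB+ arrays and was not tested. Its mean was 1.21-fold higher in CYGB+, and a gap of only 0.02 separated the highest NCE from the lowest CYGB+ replicate. A bound was taken against the lowest signal well above background on each NCE array or the probe's own signal there, whichever was higher. This bound equalled the probe's own NCE mean, so 1.21-fold is the observed ratio and not a lower limit. The 4 S100 members lie together on chromosome 1, where the order in the RefSeq annotation is PGLYRP4, S100A9, S100A12, S100A8, S100A7A, S100A7 and S100A6. PGLYRP4, a peptidoglycan recognition protein, was not well above background on any array and read 5.94 in both groups on average. S100A7A, a near-identical copy of S100A7, was not well above background on any array. S100A6, a bright calcium-binding S100, differed by 0.15 ± 0.22 (SE, adjusted p = 0.70).

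The defensins differed from each other. DEFB4A, the inducible beta-defensin, read 7.14, 7.87 and 7.88 in NCE and 10.24, 8.80 and 9.88 in CYGB+. The groups were separated by 0.92, and the difference was 2.01 ± 0.38 (SE), or 4.03-fold. Here CYGB+ replicate 1 was highest, whereas the 4 S100 members were highest in CYGB+ replicate 3. DEFB4A has a near-identical copy, DEFB4B, whose transcript this probe cannot separate. Both spots counted on 14 arrays, while on 1 NCE array the scanner software marked 1 of 2 spots as an outlier and that spot was left out. With it kept the difference was 1.61 and DEFB4A did not pass the threshold, which 9.61% of all probes then did. DEFB1, the constitutive beta-defensin, was well above background on 1 of 9 NCE and 2 of 6 CYGB+ arrays. It read 6.13, 6.09 and 6.27 in NCE and 6.12, 6.16 and 6.27 in CYGB+, values that overlapped and lay near the bottom of the measured range.

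LCN2, the siderophore-binding lipocalin, was even in CYGB+ and uneven in NCE. It read 9.08, 10.32 and 9.06 in NCE and 10.54, 10.55 and 10.71 in CYGB+, a difference of 1.11 ± 0.32 (SE). The SD was 0.72 among NCE replicates and 0.10 among CYGB+ replicates. NCE replicate 2 stood 0.22 below the lowest CYGB+ replicate, and its 3 arrays, between 10.19 and 10.43, gave like values, so the high level belonged to that replicate and not to a single array. Without NCE replicate 2 the difference was 1.53. The 2 arrays of CYGB+ replicate 1 read 10.04 and 11.03, the lower again on the array that stood apart.

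The elastase inhibitors PI3 and SLPI lie near each other on chromosome 20, with SEMG1 and SEMG2 between them in the annotation. PI3 read 6.46, 6.56 and 6.58 in NCE and 7.12, 6.86 and 6.91 in CYGB+, which did not overlap. The difference was 0.43 ± 0.10 (SE) or 1.35-fold, and it was 1.15 with the processed signal. The probe was well above background on all 15 arrays but dim, so the offset shrinks its difference too. SLPI, the more widely secreted inhibitor, read 9.10, 9.67 and 9.25 in NCE and 9.33, 9.50 and 9.74 in CYGB+. These values overlapped, with NCE replicate 2 above the first 2 CYGB+ replicates, and the difference was 0.18 ± 0.17 (SE).

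RNASE7 was the only tested member that was lower in CYGB+. It read 7.86, 8.46 and 8.09 in NCE and 7.32, 7.73 and 7.78 in CYGB+, a difference of -0.52 ± 0.19 (SE). The lowest NCE replicate was only 0.08 above the highest CYGB+ replicate. The difference moved with the slide. With slide as a block it was -0.12, and on slide 2 alone, where NCE is represented by 1 array of replicate 1 at 7.66, it was -0.05. The 2 slide 1 arrays of that same NCE replicate read 7.85 and 8.07, and 1 CYGB+ array, the one that stood apart, read 6.94. Slide and group cannot be told apart for this member beyond these values.

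The labels number the replicates in both groups, so the difference was also taken within each number. Deviations from the group means correlated at 0.21, 0.23 and 0.30 between libraries of the same number, but NCE replicate 2 with CYGB+ replicate 3 (0.29), NCE replicate 1 with CYGB+ replicate 2 (0.21) and NCE replicate 3 with CYGB+ replicate 1 (0.16) gave like values. The remaining pairs were negative: NCE replicate 1 with CYGB+ replicate 3 (-0.50), NCE replicate 2 with CYGB+ replicate 1 (-0.41) and NCE replicate 3 with CYGB+ replicate 2 (-0.49). Deviations from a mean of 3 replicates cancel out, which ties these values together. For 8 of 9 members the sign was the same in all 3 numbers, as it was for 52.7% of all tested probes. CYGB+ minus NCE was 1.76, 1.80 and 2.50 for S100A7, 1.20, 1.27 and 2.09 for S100A8, and 1.17, 0.62 and 1.10 for S100A9. It was 0.54, 0.36 and 0.73 for S100A12 and 3.1, 0.93 and 2.00 for DEFB4A. LCN2 gave 1.46, 0.23 and 1.66, and PI3 gave 0.66, 0.30 and 0.33. RNASE7 was negative in all 3 numbers (-0.54, -0.73 and -0.30), whereas SLPI gave 0.23, -0.17 and 0.49. Replicate number 2 thus had the smallest difference for DEFB4A, LCN2, S100A9, S100A12 and PI3. With the replicate number as a block, 6 of the 9 members passed the threshold (13.1% of all probes did): S100A8, S100A9 and RNASE7 joined S100A7, S100A12 and DEFB4A, and PI3 did not pass.

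**Figure D2:**
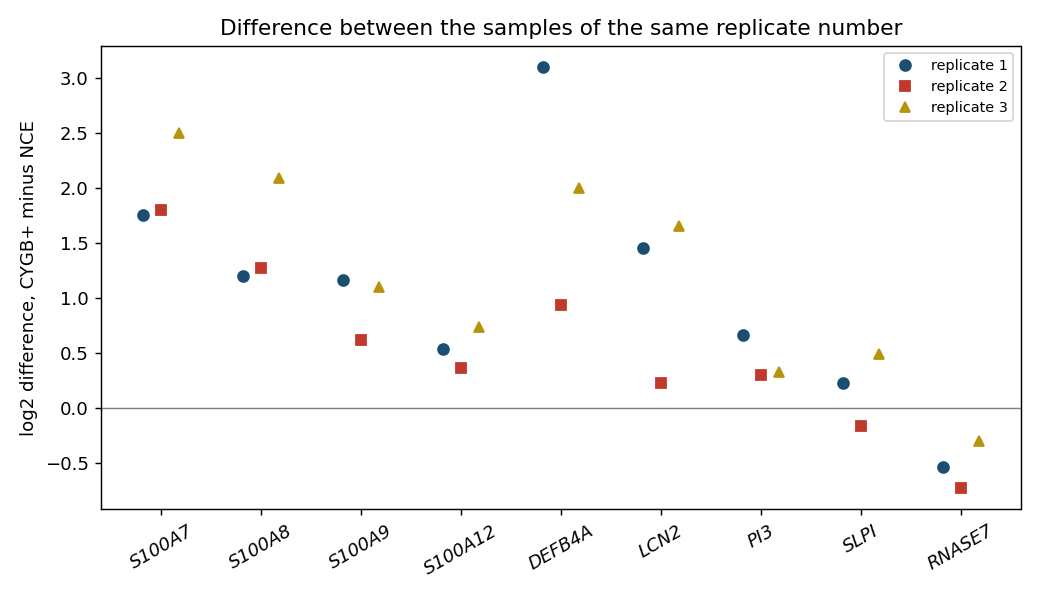
Log2 difference between the CYGB+ and the NCE library of the same replicate number (vertical axis) for each of the 9 tested members, with 1 symbol per replicate number. Points lie above 0 for 7 members in all 3 numbers, below 0 for RNASE7 in all 3, and on both sides for SLPI, and DEFB4A has the widest range, from 0.93 to 3.1.

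Levels also tended to rank the same way within a group. Among the 9 tested members, NCE replicate 1 was the lowest NCE replicate for 8, and CYGB+ replicate 3 was the highest CYGB+ replicate for 7. DEFB4A and PI3 were the exceptions in CYGB+, both highest in replicate 1. The SD between array repeats of 1 replicate ran from 0.09 for S100A12 to 0.33 for LCN2, and the SD between replicates from 0.11 for PI3 to 0.73 for S100A8. For S100A7, S100A8, S100A9, DEFB4A and SLPI the SD between replicates was over 2 times that between array repeats, whereas PI3 and RNASE7 varied about as much between array repeats as between replicates.

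Slide could be taken into account only through 1 array, that of NCE replicate 1 on slide 2, and NCE replicate 1 was the lowest NCE replicate for 8 of the 9 tested members. Differences on slide 2 alone are therefore taken against a low NCE replicate. With slide as a block the difference was 2.10 for S100A7, 1.94 for S100A8, 0.95 for S100A9, 0.59 for S100A12, 2.26 for DEFB4A, 1.57 for LCN2, 0.54 for PI3 and 0.16 for SLPI. Under that fit S100A7, S100A12 and DEFB4A passed the threshold, 3 of 9, beside 3.26% of all probes. On slide 2 alone, with its single NCE array, S100A7 differed by 2.12, S100A8 by 2.13, S100A9 by 1.14 and DEFB4A by 2.42. LCN2 differed by 1.68 there, 1.5 times its value over all arrays, and no member passed the threshold in limma, with an unadjusted p under 0.05 for 7 of 9 members and for 10.7% of all probes. Without the 2 arrays that stood apart, the 9 members kept their directions, and 7 passed the threshold, beside 19.0% of all probes: S100A7, S100A8, S100A9, S100A12, DEFB4A, LCN2 and PI3. Calls over all probes fell as well when 1 replicate was left out. Without NCE replicate 1, 1 member passed (5.22% of all probes), without NCE replicate 2, 2 members (2.21%), without NCE replicate 3, 1 member (2.22%), and without CYGB+ replicate 3, 1 member (5.66%), in place of 4.

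**Figure D3:**
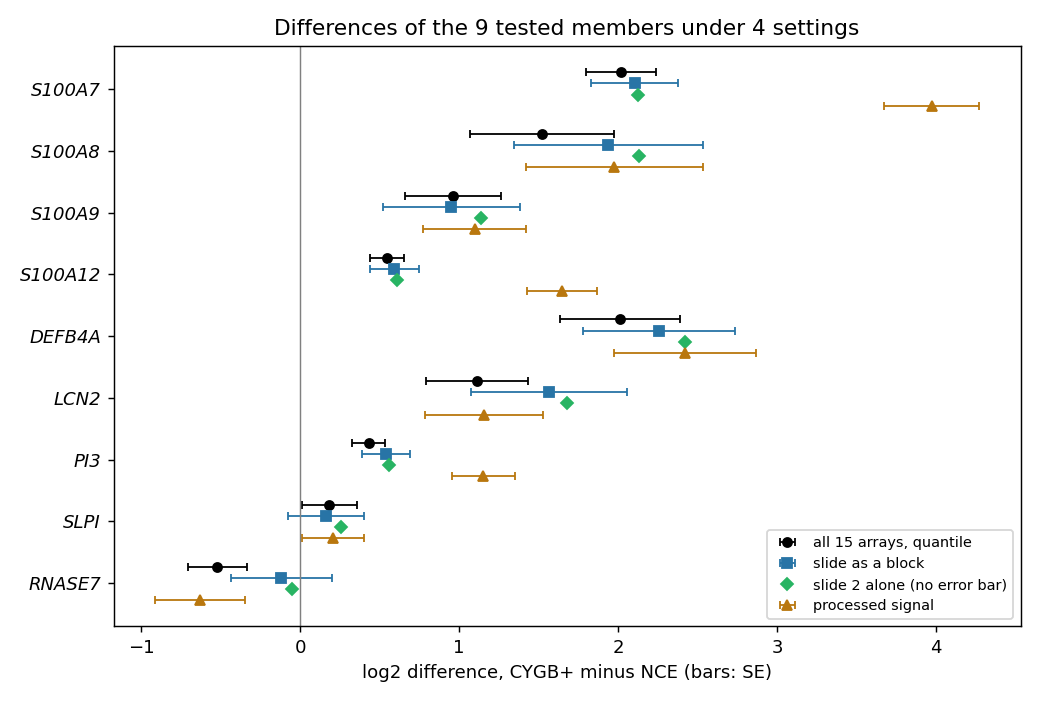
Log2 difference, CYGB+ minus NCE, for the 9 tested members (horizontal axis; bars are SE) over all 15 arrays, with slide as a block, on slide 2 alone and with the scanner's processed signal. The 7 higher members stay right of 0 under all 4 settings, RNASE7 moves from -0.52 to -0.05 on slide 2 alone, and S100A7, S100A12 and PI3 move furthest right with the processed signal.

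Other genes of the same barrier were read from lists drawn around the members. Of 36 further antimicrobial genes, 32 had a RefSeq-named probe, 10 could be tested, 1 rose and 1 fell, and the median difference was 0.01. The gene that rose was DEFB103B, human beta-defensin 3, at 7.34, 7.70 and 8.09 in NCE and 9.0, 8.70 and 9.49 in CYGB+. Its difference was 1.35 ± 0.25 (SE, adjusted p = 0.019), and it was 1.41 with slide as a block (adjusted p = 0.035). DEFB103B and DEFB103A are near-identical copies, and the probe named for DEFB103A was well above background on only 1 array, so the 2 probes disagree. WFDC2, a whey acidic protein family member like PI3 and SLPI, fell by 1.20 ± 0.21 on the log2 scale (SE, adjusted p = 0.016, and 0.085 with slide as a block). Among 15 other S100 genes, 11 were tested, none rose and 1 fell, S100A4, a motility-associated S100, by 0.42 ± 0.11 (SE, adjusted p = 0.048, and 0.19 with slide as a block). The median of these 11 was 0.24, beside 0.00 over all tested probes.

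A list of 14 other alarmins and related genes held interleukin-1 family cytokines and antagonists, the cytokine TSLP and chromatin proteins that act outside the cell. Of these, 9 were tested, none rose and 1 fell. It was HMGN1, a nucleosome-binding protein, which fell by 0.71 ± 0.13 (SE, adjusted p = 0.018, and 0.25 with slide as a block). Its other tested probe fell short of the threshold (-0.65, adjusted p = 0.058). A list of 32 genes held receptors for the members and for the cytokines that induce them, sensors of microbial ligands and the adaptor MYD88. Of these, 24 were tested, 1 rose and 1 fell. IL1RL1, the interleukin-33 receptor, rose by 1.01 ± 0.24 (SE, adjusted p = 0.041, and 0.39 with slide as a block). IL22RA1, through which interleukin-22 acts on epithelium, fell by 0.41 ± 0.09 (SE, adjusted p = 0.032, and 0.10 with slide as a block).

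Among 29 regulators, 27 were tested, 2 rose and 2 fell, around a median of 0.04. ZC3H12A, an RNase that degrades inflammatory transcripts, rose by 0.86 ± 0.18 (SE, adjusted p = 0.026), and JUNB, an AP-1 subunit, rose by 0.64 ± 0.12 (SE, adjusted p = 0.023). TRAF6, an adaptor of interleukin-1 and interleukin-17 signalling, fell by 0.65 ± 0.10 (SE, adjusted p = 0.011), and EHF, an epithelial ETS factor, fell by 0.50 ± 0.12 (SE, adjusted p = 0.046). With slide as a block none of the 27 passed the threshold in limma, with adjusted p of 0.50, 0.15, 0.061 and 0.28 for these 4 genes. Of 15 cytokines that share inducers with the members, 11 were tested, 3 rose, none fell and 8 did not pass, with a median of 0.77. Among those that did not pass, CXCL5 gave -1.08 and CCL20 -0.22. IL24, an interleukin-20 family cytokine, rose by 1.81 ± 0.15 (SE, adjusted p = 0.004), and IL6 rose by 1.42 ± 0.18 (SE, adjusted p = 0.007). Both passed with slide as a block. CXCL2, a neutrophil attractant, rose by 1.67 ± 0.41 (SE, adjusted p = 0.044, and 0.11 with slide as a block), while its other tested probe gave 1.08 (adjusted p = 0.056 in the same fit).

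**Figure D4:**
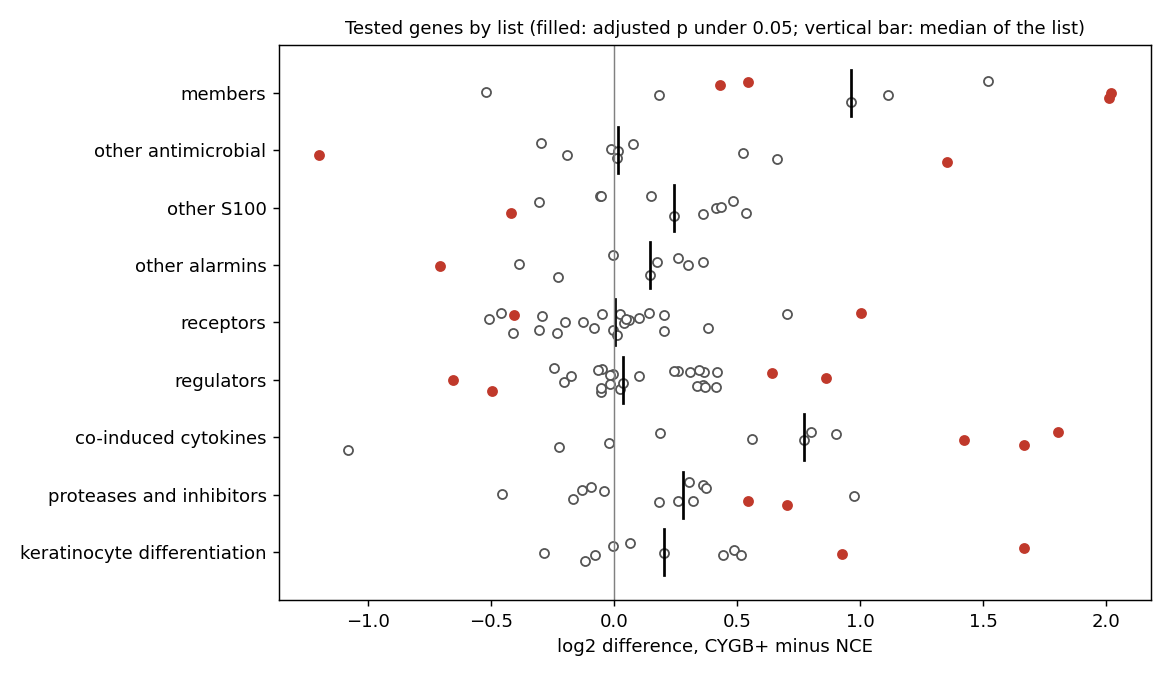
Log2 differences, CYGB+ minus NCE (horizontal axis), of every tested gene of the members and of 8 lists around them; filled dots passed an adjusted p of 0.05 over all probes and the vertical bar is the median of the list. The members, selected on this contrast, have a median of 0.96, the co-induced cytokines one of 0.77, and the other 7 lists lie between 0.00 and 0.28.

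Of 23 proteases and protease inhibitors, 14 were tested and 2 rose, both cysteine protease inhibitors of the epidermis: CST6 by 0.70 ± 0.16 (SE, adjusted p = 0.034, and 0.53 with slide as a block) and CSTA by 0.54 ± 0.10 (SE, adjusted p = 0.023, and 0.58 with slide as a block). Of 19 keratinocyte differentiation genes, 11 were tested and 2 rose, both small proline-rich proteins of the cornified envelope. SPRR2A rose by 1.67 ± 0.28 (SE, adjusted p = 0.015) and SPRR1B by 0.93 ± 0.14 (SE, adjusted p = 0.011), and both passed with slide as a block. SPRR2 genes are near-identical, and the other tested probe of SPRR2A gave 0.45 (adjusted p = 0.15), so the value for SPRR2A is uncertain. Probes also disagreed for SPRR1A and SPRR2D, which are not counted as having risen: the probe read gave 0.44 and 0.20, and the other probe 0.76 (adjusted p = 0.0094) and 1.42 (adjusted p = 0.0051).

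S100A8, S100A9, S100A12 and LCN2 are also abundant in neutrophils, so markers of other cell types were read. Of 10 neutrophil and myeloid markers, 8 had a probe, 4 could be tested, 1 rose and none fell. PTPRC, the pan-leukocyte antigen, was well above background on 3 of 9 NCE and 2 of 6 CYGB+ arrays, and AZU1 on none. CD14, a monocyte co-receptor, averaged 8.28 in NCE and 7.82 in CYGB+, and it, CSF3R and TYROBP were well above background on all 15 arrays, with no call for these 3. MPO, the neutrophil peroxidase, rose by 1.47 ± 0.16 (SE, adjusted p = 0.005), from 6.15, 6.21 and 6.24 to 7.43, 7.55 and 8.05. It was well above background on 3 of 9 NCE and 6 of 6 CYGB+ arrays. MPO thus met the filter of 6 arrays only through CYGB+, and nothing is read from its adjusted p. The summed linear level of the 8 markers was 811 to 958 in NCE and 879 to 1025 in CYGB+. Of 7 fibroblast markers, 2 were tested and COL1A2 fell by 1.32 ± 0.10 (SE, adjusted p = 0.003), with a summed level of 614 to 659 in NCE and 478 to 506 in CYGB+. Of the 9 squamous markers, KRT6A fell by 0.46 ± 0.11 (SE, adjusted p = 0.045) but was -0.05 with slide as a block, and the summed level, 57575 to 61236 in NCE and 52904 to 67488 in CYGB+, overlapped. Of 4 endothelial and 4 lymphocyte markers, 1 each was tested and neither passed. The summed level was 279 to 403 in NCE and 277 to 305 in CYGB+ for the endothelial markers, and 913 to 988 in NCE and 670 to 840 in CYGB+, with no overlap, for the lymphocyte markers. Too dim to test were 4 myeloid, 5 fibroblast, 3 endothelial and 3 lymphocyte markers. The sums of these lists therefore include signal near background, and nothing is read from their overlap. The part of the markers of all these cell types in the members' differences was not tested.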

How the data were processed

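RNA of 3 NCE and 3 CYGB+ biological replicates was hybridised to Agilent SurePrint G3 human arrays (15 arrays), and groups and replicate numbers were taken from the labels. The authors deposited green-channel median spot and local background intensity values, a processed intensity (background-subtracted and dye-normalised), and other values, which are 0 or 1 flags for signal well above background, saturation and outlier spots, extracted with Feature Extraction 10.7.3.1 and the two-colour protocol GE2_107_Sep09 (design build hg19). The methods name Cy5 for control RNA, whereas the labels give Cy3 for all samples. Green was used after the labels, and red was not. The authors' deposited log2 values, quantile-normalised per the methods and centred per probe, correlated with the green channel on all 15 arrays (r of 0.84 to 0.96 over 14949 probes). They were not compared with red, so this does not settle which channel they follow. Scale between arrays in that table is not stated, and it was used only as an alternative.

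The planned mean spot signal was not among the columns used, so the median was taken. In limma 3.58.1 (R 4.3.3), signals were background-corrected (normexp, offset 50), outlier spots were dropped, arrays were quantile-normalised, and spots of a probe and then array repeats of a replicate were averaged. Probes well above background (on at least as many spots as not) on 6 or more of 15 arrays were tested with lmFit and eBayes, with Benjamini-Hochberg adjustment and a threshold of 0.05. Probes were named through RefSeq accessions (25422 of 27310 such probes matched), and each gene was read by its brightest probe. SE is limma's. Named genes were all members, CYGB, and in each other list at most 4 genes past the threshold with the largest differences; further genes were named after their values were seen. The members and lists were chosen with earlier results of these data known. Nothing says that replicates came from separate cultures beyond separate RNA extractions, so p-values measure the spread between these samples. Every same-numbered pair correlated above 0.1 (r of 0.21, 0.23 and 0.30), though other pairs reached 0.29, so a fit with the replicate number as a block was made as an alternative. The fit was tested on simulated data. Other alternatives changed the signal, scaling, filter, slide, probe choice, test and samples included. Slide and scan coincided, so scan was not fitted separately.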

Additional observations from a re-analysis of the deposited data

How the results depend on the processing

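Over the alternatives run, the direction held for each of the 9 tested members, 152 of 164 member values lay within 1 SD between replicates of the value reported, and 12 moved further. Of 391 values for 20 other named genes, none turned direction and 139 did not pass the threshold. Alternatives that changed only the filter, the replicate block or the test repeated the members' differences exactly. Leaving out 1 replicate cannot turn a direction where the groups do not overlap. Part of this agreement was therefore fixed in advance. Counts of probes, members and listed genes past the threshold were 2415, 4 and 17. They were 728, 3 and 7 with slide as a block, 5, 0 and 0 on slide 2 alone in limma (unadjusted p under 0.05 for 7 of 9 members and 25 of 117 listed genes), and 660, 0 and 4 by the methods' t-test (unadjusted, 4 members and 36 listed genes). For the t-test no share of all probes with an unadjusted p under 0.05 is given. Whether its 4 members and 36 listed genes exceed the general rate therefore cannot be told, and nothing is read from them. The 3 counts past the threshold were 4858, 8 and 36 with all 15 arrays and the biological replicate as a random block. That fit used a single correlation of 0.165 between array repeats for all probes. The fit with slide as a block used 0.173. For S100A7, S100A8, S100A9, DEFB4A and SLPI the SD between replicates exceeded that between array repeats. Both fits thus treat array repeats of these members as only weakly correlated, which can make p too small. Nothing is read from the counts of 4858, 8 and 36. Chosen after seeing the data, leaving out the 2 arrays that stood apart gave 4238, 7 and 33. The deposited value table, which holds 4 members, gave 1444, 1 and 10. Scaling to the 75th percentile in place of quantiles gave 1504, 6 and 14, and the filter on all 15 arrays, which drops S100A7 and S100A12, gave 2120 of 17667 probes, 2 members and 16 listed genes. Leaving out 1 replicate gave 493 to 2398 probes, 1 to 4 members and 4 to 17 listed genes. With the replicate number as a block the counts were 2933, 6 and 22. Signal near background limits DEFB1, S100A12 and S100A7 in NCE, and PI3 was dim as well.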

Other observations

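One spot of DEFB4A on the first array repeat of NCE replicate 2 had a signal of 53661 and was marked as an outlier by the scanner software. The other DEFB4A spot on that array read 215, and the 17 DEFB4A spots on NCE arrays that were not marked read 91.5 to 267.

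S100A7 and MPO were the pair of genes described above that were dim in NCE and well above background on all 6 CYGB+ arrays with differences over 1 on the log2 scale; 4 of the 9 NCE arrays were not well above background for S100A7 and 6 for MPO. KLK5, a kallikrein known to process antimicrobial peptides, gave 0.97 ± 0.31 (SE, adjusted p = 0.091 in limma), and CXCL5, a neutrophil attractant, gave -1.08 ± 0.36 (SE, adjusted p = 0.10 in limma), against the direction of CXCL2. With slide as a block they gave 0.80 and -0.17. Both were chosen after their values were seen.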
